A study of Oryctolagus cuniculus with 39 samples.

Results

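The creatine genes of rabbit brown adipose tissue (BAT) were followed from the first day of life to 12 weeks. Creatine is made from arginine and glycine by GATM and then GAMT, is taken up by cells through the transporter SLC6A8, and is charged to phosphocreatine by creatine kinases. CKM is the cytosolic kinase best known from skeletal muscle, CKB is the cytosolic kinase of brain and many other tissues, and CKMT2 is the sarcomeric type of the mitochondrial kinase. In brown and beige fat, a cycle of creatine phosphorylation and phosphocreatine hydrolysis in mitochondria has been described as a heat-producing route besides UCP1, the uncoupling protein that defines brown fat. Of the 6 symbols listed for this set, 5 were found by gene identifier in both tables of gene expression (CKM, CKB, CKMT2, GATM and SLC6A8), among 20589 identifiers in the table of the stromal vascular fraction and 20183 in that of whole tissue. GAMT was not analysed here. The list was put together with values of these data in view, and CKM was chosen by its FPKM in whole fat at day 1, where it was present while the muscle actin ACTA1 was near absent. Its levels in whole fat are therefore a description and were not tested.

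All animals were New Zealand White rabbits, and no treatment or genotype was labelled. Whole interscapular BAT (total iBAT) came from 4 ages, day 1 and 3, 6 and 12 weeks. The same ages were taken for the stromal vascular fraction (SVF, in which the cells other than fat cells are collected) of interscapular and subscapular BAT (iBAT SVF and sBAT SVF). Each of the 12 groups had 3 RNA-seq libraries, 36 in all. The labels do not say which libraries came from separate animals. The p-values set a difference against the spread between libraries within groups, pooled over all groups of a table. This spread may be technical in part. Values are FPKM, read fragments scaled to transcript length and library size, which allow levels of different genes to be set side by side. Tests used limma on log2(FPKM + 1), and a gene was called at a Benjamini-Hochberg (BH) adjusted p under 0.05 over all genes tested. Total iBAT and SVF were normalized separately, so their levels were not tested against each other. In bulk tissue, fewer cells of a type and less RNA per cell cannot be told apart.

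The tissue labels fitted their markers in part. UCP1 stood at 5102, 5163 and 5780 FPKM in total iBAT at day 1 and at 4.16, 4.21 and 0.44 FPKM at 12 weeks. The 8 genes found of the adipocyte list were also present in the SVF, summing to 887.9 to 8253 FPKM against 23160 to 41410 FPKM in total iBAT. Which cells of the SVF held them was not tested. Of 25 sarcomere genes, which mark skeletal muscle, 19 were found. Their summed level was 10.44 to 207.6 FPKM in 11 of the total iBAT libraries and 7125 FPKM in the third library of 3 weeks. In the SVF the same sum ran from 4.4 to 2788 FPKM. The 3 sBAT SVF libraries of 3 weeks stood apart, since 2 genes, ADORA1 and LOC100009266, held 63.9 to 80.4% of their summed FPKM. The same genes held 26.2 to 37.3% in sBAT SVF at day 1, which enters every sBAT SVF comparison with day 1, and 5.21 to 8.81% at 12 weeks. They also held 19.22% in 1 sBAT SVF library of 6 weeks and 20.27% in 1 iBAT SVF library of 3 weeks, and at most 9.92% in any other library. Sequencing depth is unknown in absolute terms. Within total iBAT the relative depth was 0.56 to 0.622 at day 1 and 1.358 to 1.381 at 12 weeks.

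The mean share of each creatine kinase in whole interscapular fat differed between the ages. At day 1 the transcripts of CKM made up 48.6% ± 11.7 (SD, n = 3) of the summed FPKM of the 3 kinases, CKB made up 41.7% ± 10.7 and CKMT2 9.65% ± 2.54. In the first day 1 library CKB exceeded CKM (53.6% against 35.1%), and in the other libraries of that age CKM exceeded CKB. At 12 weeks CKB held 99.8% ± 0.26 of the sum, CKM 0.169% ± 0.229 and CKMT2 0.0207%. The sum itself was 281.9 ± 140.6 FPKM at day 1 and 473.1 ± 159.8 FPKM at 12 weeks, and its values overlapped between these ages (192.7 to 444.0 against 330.4 to 645.7). In the third library of 3 weeks, the one with sarcomere transcripts, CKM held 83.4%, against 1.63% and 1.25% in the other libraries of that age. These shares rest in part on the CKM values that chose the gene and are a description.

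**Figure D1:**
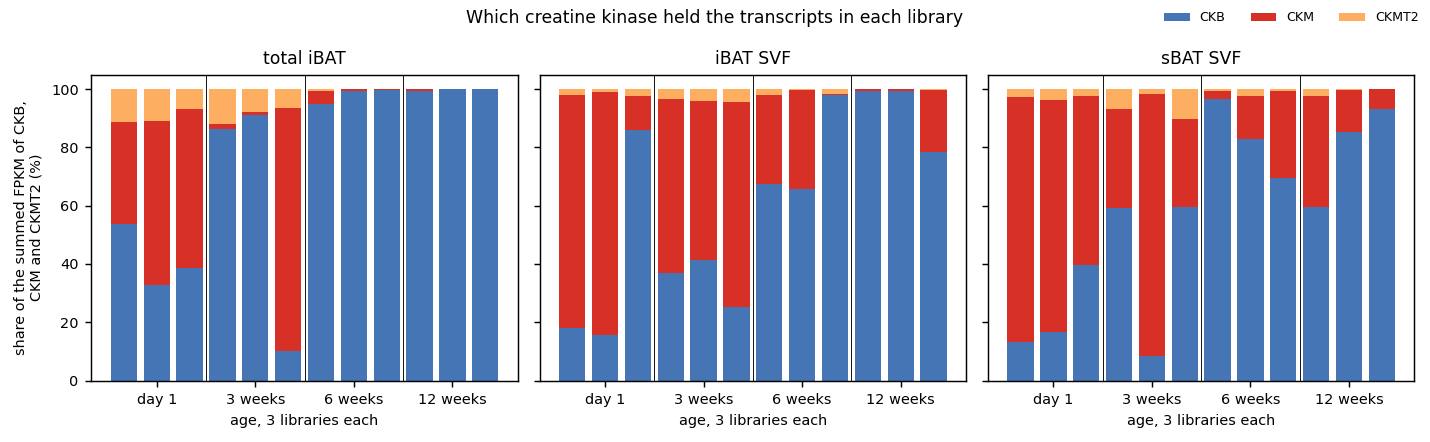
Share of the summed FPKM of CKB, CKM and CKMT2 (y axis, %) in each of 36 libraries, 1 bar per library, ordered by age within each tissue. In total iBAT the CKB share was 32.9 to 53.6% at day 1 and 99.5% or more at 12 weeks, and the third library of 3 weeks was mostly CKM.

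CKM had the highest mean of the 5 genes in total iBAT at day 1, 141.4 ± 89.4 FPKM (SD, n = 3), over a range that overlapped with that of CKB. Its 3 libraries read 73.35, 108.1 and 242.7 FPKM. At 3 weeks they read 2.03, 1.51 and 421.0 FPKM, at 6 weeks 10.45, 1.3 and 0.41 FPKM, and at 12 weeks 1.43, 0.23 and 0.14 FPKM. All day 1 libraries lay above all libraries of 6 and 12 weeks, and the groups of day 1 and 3 weeks overlapped only through the 1 library rich in sarcomere transcripts. The difference of 12 weeks from day 1 was -6.38 on the log2(FPKM + 1) scale.

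Most sarcomere transcripts were low or at 0 beside the CKM of day 1. The sum of the 19 sarcomere genes was 21.65 to 27.69 FPKM at day 1, with ACTN2 the largest part of it, and 18.43 to 28.42 FPKM at 12 weeks. ACTA1, the actin of skeletal muscle, read 3.08, 4.86 and 2.26 FPKM in these libraries. MYL1, a fast muscle myosin light chain, read 0.35, 1.3 and 0 FPKM. MYH1, a fast myosin heavy chain, was listed at 0 in all 3 libraries, and TNNT1, a slow troponin T, in 2 of the 3. Of the 19 sarcomere genes, 3 or 4 reached 1 FPKM in each day 1 library, against all 19 in the third library of 3 weeks, where ACTA1 was 2163 FPKM. That library held 0.195 FPKM of CKM per FPKM of ACTA1. At this ratio, the ACTA1 of the day 1 libraries would go with 0.6, 0.946 and 0.44 FPKM of CKM, which is 0.818%, 0.875% and 0.181% of the CKM that was measured. With the sum of all sarcomere genes in place of ACTA1 the shares were 1.74%, 1.51% and 0.65%. CKM per ACTA1 was 0.111 to 0.449 over the 24 SVF libraries, and 23.8, 22.2 and 107 in total iBAT at day 1. These ratios and shares are made of the values by which CKM was chosen, so they describe its choice and are no test of where the transcript came from.

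After day 1 CKM lay closer to the level that goes with ACTA1. The first library of 6 weeks had 10.45 FPKM of CKM beside 60.03 FPKM of ACTA1, 0.894 times the level at the reference ratio. The first library of 3 weeks had 2.03 FPKM of CKM beside 0.56 FPKM of ACTA1, 18.6 times that level, but at a low level of both. In the 3 libraries of 12 weeks CKM was 2.12, 0.419 and 0.232 times the level at the reference ratio.

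**Figure D2:**
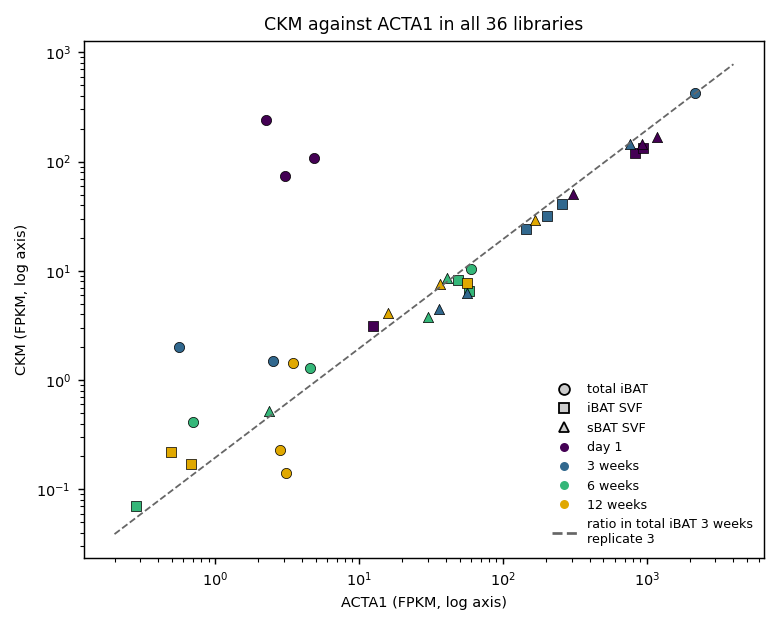
CKM (y axis, FPKM) against ACTA1 (x axis, FPKM) in all 36 libraries, both axes logarithmic, with shape for the tissue and colour for the age; the dashed line is the ratio in the third total iBAT library of 3 weeks. The 3 day 1 libraries of total iBAT lie 114 to 552 times above the line, and the 24 SVF libraries lie near it.

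Some genes shared with muscle were present beside CKM at day 1. ACTN2, the actinin of the Z-disc, read 10.48, 15.64 and 16.67 FPKM in total iBAT at day 1, and MB, the oxygen store myoglobin, read 48.85, 47.58 and 35.54 FPKM. At 12 weeks ACTN2 read 0.9, 0.59 and 0.35 FPKM and MB 0.52, 0 and 0.26 FPKM. Both lay below all day 1 libraries. MB fell by 5.165 on the log2 scale (SE 0.832, adjusted p = 0.000373), whereas ACTN2, with a difference of -3.23 (SE 1.27, adjusted p = 0.0546), was not called. MB is 1 of 14 listed genes of muscle metabolism that fat can also express. Of these 14, 4 or 5 reached 1 FPKM in each day 1 library and 4 to 6 in each library of 12 weeks. Their sum, MB included, was 103.6 to 134.8 FPKM at day 1 and 80.53 to 112.3 FPKM at 12 weeks, with overlap. ACTN2 was also the gene most like CKM over the 12 total iBAT libraries by Pearson's r of log2(FPKM + 1), at 0.945, and PKM, the pyruvate kinase of most tissues, was among the 3 most like it, at 0.904. Without the third library of 3 weeks, r was 0.988 for ACTN2, and SNX18 and ACY1 came next. After median ratio scaling of the 12 libraries ATPIF1 came first, at 0.961, before ACTN2, at 0.952. These correlations share libraries and ages and carry no test.

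CKB rose in whole fat with age. It read 112, 63.4 and 171 FPKM at day 1, 107, 109.7 and 51.7 FPKM at 3 weeks, 208.8, 193.7 and 480.5 FPKM at 6 weeks, and 328.8, 443.0 and 645.5 FPKM at 12 weeks. The lowest library of 6 weeks was above the highest of day 1 and of 3 weeks. CKB was higher at 12 weeks than at day 1 by 2.08 (SE 0.442, adjusted p = 0.00241), and at 6 weeks than at 3 weeks by 1.65 (adjusted p = 0.0332). The call of 6 against 3 weeks was lost without the first or the third library of 3 weeks or the third of 6 weeks. It was also lost with no filter (adjusted p = 0.0672) and with only the groups compared (adjusted p = 0.0606). The call of the rise of 1.32 from day 1 to 6 weeks (adjusted p = 0.0261) was lost after median ratio scaling (1.05, adjusted p = 0.0659). Upper quartile scaling (adjusted p = 0.0628) and no filter (adjusted p = 0.0506) ended it too. So did leaving out the third library of 6 weeks or the first or second of day 1. The difference between 12 and 6 weeks was not called (0.756, adjusted p = 0.42). The genes most like CKB over the 12 libraries were HSPA5, a chaperone of the endoplasmic reticulum, at r = 0.955, ALDH4A1 at 0.945 and TPST2 at 0.942.

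CKMT2 fell to near 0 FPKM. It read 23.6, 21.1 and 29.9 FPKM in total iBAT at day 1 and 14.8, 9.26 and 32.4 FPKM at 3 weeks, where the highest value was that of the library rich in sarcomere transcripts. At 6 weeks it read 1.06, 0 and 0.46 FPKM and at 12 weeks 0.18, 0 and 0.05 FPKM, all below every library of day 1 and 3 weeks. The log2 difference was -4.15 at 6 weeks (adjusted p = 5.11e-06) and -4.58 at 12 weeks (SE 0.367, adjusted p = 2.49e-06). From 3 to 6 weeks it was -3.6 (adjusted p = 0.000116). From day 1 to 3 weeks CKMT2 was not called (-0.543, adjusted p = 0.254), and without the third library of 3 weeks it was called (-1.01, adjusted p = 0.0202).

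CKMT2 fell together with the genes of mitochondria and of brown fat. Of 29 genes for respiratory chain and citric acid cycle proteins, all 29 were lower at 12 weeks than at day 1, with a median of -2.21. Of 20 brown fat genes tested, 17 were lower and 2 higher, with a median of -1.6, among them PPARGC1A, the coactivator of mitochondrial biogenesis (-4.38), and COX7A1, a subunit of cytochrome c oxidase (-4.88). CIDEA, a lipid droplet protein of brown fat, was higher (1.01), as was ADIPOQ, the fat cell hormone adiponectin (3.4). Over all 12853 genes tested, 31.3% were higher, 15.7% lower and the median was 0.19. Markers of other cell types differed over the same ages. Of 5 progenitor genes 3 were higher, among them PDGFRA (2.48) and PI16 (3.57), and DPP4 was lower. Of 5 endothelial genes 4 were lower and VWF was higher, of 4 smooth muscle genes 3 were lower, among them ACTG2 (-2.84), and of 3 macrophage genes CSF1R was higher (1.32). The part of these cells in the values of CKB and CKMT2 was not tested. The genes most like CKMT2 over the 12 libraries were ECH1, an enzyme of fatty acid oxidation, at r = 0.994, PHKG1, a subunit of phosphorylase kinase, at 0.991 and the potassium channel KCNK3, at 0.99.

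The transporter SLC6A8 was low at 6 weeks and not at 12 weeks. It read 29.3, 26.3 and 46.1 FPKM at day 1, 40.3, 25.4 and 47.1 FPKM at 3 weeks, 15.9, 13.6 and 16.2 FPKM at 6 weeks, and 21.3, 31.5 and 51.9 FPKM at 12 weeks. The 6 weeks libraries lay below all others and were close together. SLC6A8 fell by 1.07 from day 1 to 6 weeks (adjusted p = 0.0134) and by 1.21 from 3 to 6 weeks (adjusted p = 0.0272). The difference of 12 from 6 weeks was 1.06 (adjusted p = 0.168) and was not called, and that of 12 weeks from day 1 was -0.008 (adjusted p = 0.986). Without the third library of day 1 the call of 6 weeks against day 1 was lost (adjusted p = 0.0597), and that of 6 against 3 weeks was lost without any 1 of 4 of its 6 libraries. With no filter the call of 6 against 3 weeks was lost too (adjusted p = 0.0548). The call of SLC6A8 in the joint test over the ages was lost without the second library of 6 weeks (adjusted p = 0.075). The genes most like SLC6A8 over the 12 libraries were MIEF1, CDK16 and MRPL49, at r = 0.839, 0.825 and 0.816, lower than for the other 4 genes.

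GATM, the first enzyme of creatine synthesis, was low in whole fat at every age. It read 1.55, 2.57 and 2.09 FPKM at day 1, 7.04, 8.41 and 3.7 FPKM at 3 weeks, 3.81, 15 and 7.93 FPKM at 6 weeks, and 3.19, 1.63 and 2.26 FPKM at 12 weeks. All libraries of 3 and 6 weeks lay above those of day 1 and of 12 weeks. GATM was higher than at day 1 by 1.22 at 3 weeks (adjusted p = 0.0249) and by 1.54 at 6 weeks (adjusted p = 0.00587), and the value at 12 weeks was 0.118 (adjusted p = 0.822). The call at 3 weeks was lost after median ratio scaling (0.989, adjusted p = 0.0556) and without the first or the third library of day 1 or the first or second of 3 weeks. The difference of 12 from 6 weeks, -1.42, was not called (adjusted p = 0.152).

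GATM varied with genes of the Schwann cell, the glial cell that sheathes peripheral nerves. Over the 12 total iBAT libraries the genes most like GATM were MBP at r = 0.981, PMP2 at 0.963 and PMP22 at 0.953, all of which encode myelin proteins. MBP, myelin basic protein, read 1.15, 4.22 and 4.13 FPKM at day 1, 18.8, 19.23 and 6.54 FPKM at 3 weeks, 6.59, 52.64 and 21.97 FPKM at 6 weeks, and 4.41, 1.06 and 4.3 FPKM at 12 weeks. Its libraries of 3 and 6 weeks lay above all others, as those of GATM did, and the second library of 6 weeks was the highest in both. MBP was called higher than at day 1 at 3 weeks (1.9, adjusted p = 0.0386) and at 6 weeks (2.45, adjusted p = 0.00948) and not at 12 weeks (0.012, adjusted p = 0.99). Of 3 further genes on the list of Schwann cell and nerve markers, S100B, which fat cells also express, was still higher at 12 weeks (2.83, adjusted p = 0.000652), unlike GATM. SOX10, the transcription factor of glial cells, stood between 0.43 and 6.29 FPKM and was called at none of these 3 ages against day 1, and GFAP did not pass the filter. The part of Schwann cells in the GATM values was not tested.

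**Figure D3:**
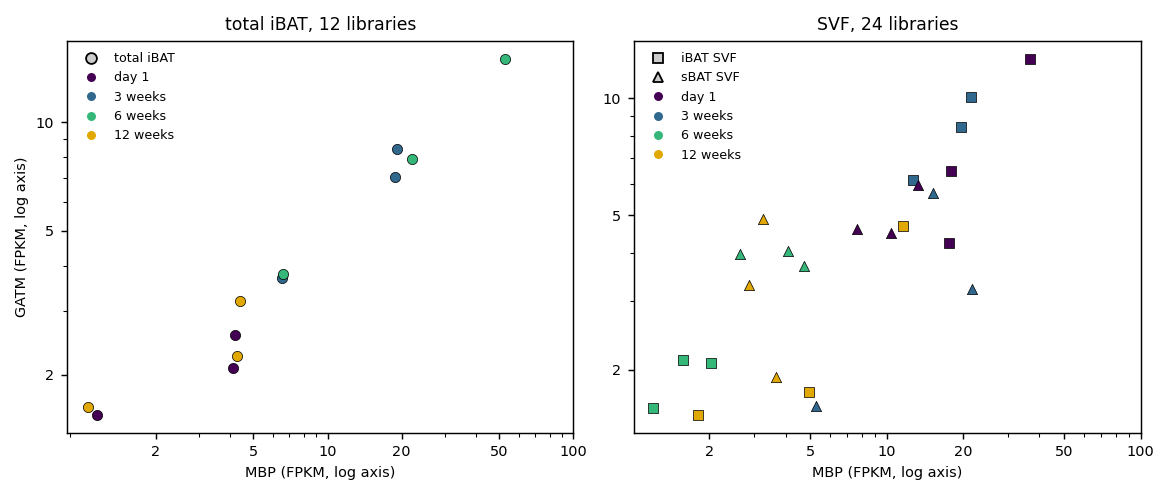
GATM (y axis, FPKM) against MBP (x axis, FPKM), both axes logarithmic, 1 point per library, for total iBAT (left) and SVF (right), with colour for the age and shape for the tissue. In total iBAT the libraries of day 1 and 12 weeks are at the low end of both axes and the second library of 6 weeks, with 15 FPKM of GATM and 52.64 FPKM of MBP, is at the high end.

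Counted step by step in total iBAT, 1 of the 4 genes tested was called from day 1 to 3 weeks (GATM, 41.7% of all genes called) and 4 of 4 from day 1 to 6 weeks (CKB and GATM higher, CKMT2 and SLC6A8 lower, 50.7% of all genes). From 3 to 6 weeks 3 of 4 were called (CKB higher, CKMT2 and SLC6A8 lower), where 10.9% of all genes were. From 6 to 12 weeks limma called none, where it called 0.195% of all genes, and 2 of the 4 had an unadjusted p under 0.05 (GATM and SLC6A8). By the joint test over the 4 ages, all 4 genes tested in total iBAT changed with age, where 55.6% of all genes were called. For 12 weeks against day 1, 2 of 4 were called, CKB higher and CKMT2 lower, where 47% of all genes were called. After median ratio scaling these calls were kept (CKB 1.86, adjusted p = 0.00458; CKMT2 -4.76, adjusted p = 2.96e-06). That scaling moved the median of all genes from 0.19 to 0.02 and the split of calls from 4022 higher and 2013 lower to 3020 higher and 2894 lower. The order of the levels also changed. At day 1 it was CKM, CKB, SLC6A8, CKMT2 and GATM, of which CKM and CKB overlapped in range, as did SLC6A8 and CKMT2. At 12 weeks it was CKB, SLC6A8, GATM, CKM and CKMT2, with CKB above SLC6A8 and SLC6A8 above GATM in every library, while CKM and CKMT2 overlapped.

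**Figure D4:**
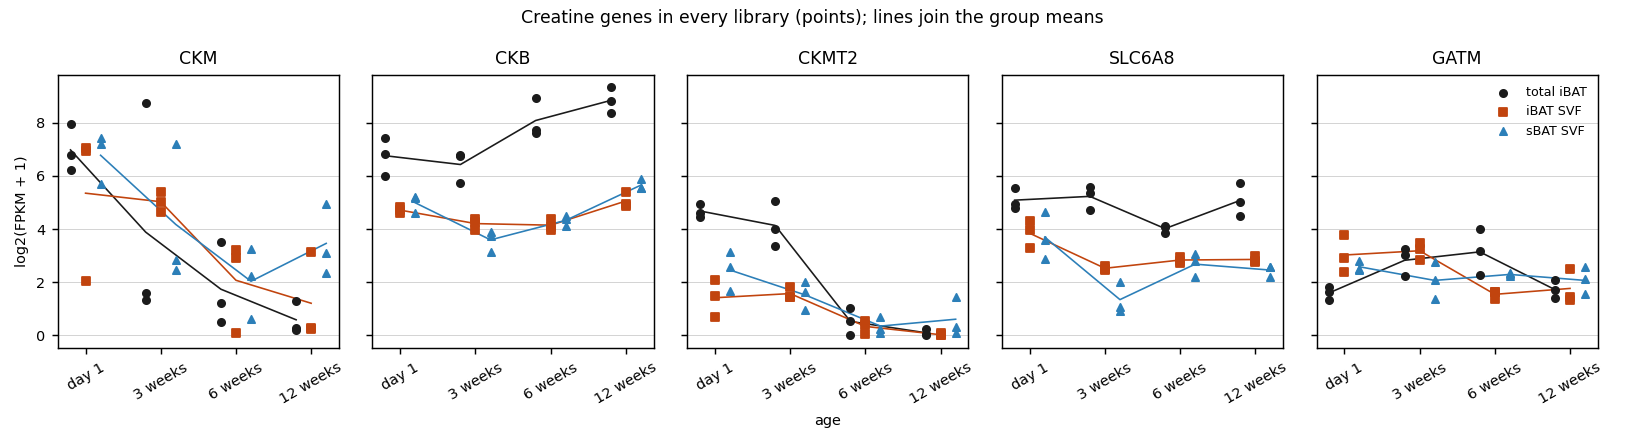
Level of each of the 5 genes (y axis, log2(FPKM + 1)) in every library by age, with colour and shape for the tissue; points are libraries and lines join the means of 3 libraries. In total iBAT CKB rises from a mean of 115.6 to 472.4 FPKM between day 1 and 12 weeks while CKMT2 falls from 24.85 to 0.0767 FPKM.

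In the stromal vascular fraction, CKM followed muscle transcripts. It read 120.8, 132.5 and 3.14 FPKM in iBAT SVF at day 1, 31.7, 24.1 and 40.9 FPKM at 3 weeks, 6.58, 8.21 and 0.07 FPKM at 6 weeks, and 0.17, 0.22 and 7.69 FPKM at 12 weeks. The summed sarcomere genes of the same libraries were 1775, 2076 and 21.0 FPKM at day 1 and 4.4, 5.58 and 127.0 FPKM at 12 weeks, so at both ages the third library departed from its group in the same direction in CKM and in this sum. In sBAT SVF, CKM read 146.1, 169.5 and 50.9 FPKM at day 1, 4.51, 146.3 and 6.21 FPKM at 3 weeks, 0.52, 3.76 and 8.55 FPKM at 6 weeks, and 29.4, 7.57 and 4.11 FPKM at 12 weeks. Over the 24 SVF libraries the genes most like CKM were MYLPF, MYL1 and ACTA1, at r = 0.984, 0.983 and 0.981. CKM was called lower at 12 weeks than at day 1 in iBAT SVF (-4.13, SE 1.27, adjusted p = 0.015), although the groups overlapped, and in sBAT SVF (-3.31, adjusted p = 0.04). Of 17 sarcomere genes tested in the SVF, 8 were lower in iBAT SVF and 6 in sBAT SVF, where 22.8% and 5.86% of all genes were lower, and none was higher. The all-gene share of sBAT SVF changed with the scaling, as given below. The part of muscle in the CKM values of the SVF was not tested. Leaving out 1 library ended the iBAT SVF call in 4 of 6 cases and the sBAT SVF call in 4 of 6. The sBAT SVF call was also lost with a pseudocount of 0.1 (adjusted p = 0.102) and with no filter (adjusted p = 0.0716).

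CKMT2 was low in the SVF and fell there too. Over the 24 SVF libraries it stood between 0 and 7.8 FPKM. It read 3.2, 1.82 and 0.61 FPKM in iBAT SVF at day 1 and 0, 0 and 0.06 FPKM at 12 weeks, with no overlap (-1.39, SE 0.377, adjusted p = 0.0071). Of these values only 3.2 and 1.82 FPKM reached 1 FPKM, so CKMT2 passed the filter through libraries of other groups. This difference is one between values near the floor. In sBAT SVF it read 4.9, 7.8 and 2.2 FPKM at day 1, 0.92, 2.98 and 2.1 FPKM at 3 weeks, 0.08, 0.62 and 0.19 FPKM at 6 weeks, and 1.71, 0.24 and 0.06 FPKM at 12 weeks. All libraries of 6 and 12 weeks lay below those of day 1 (12 weeks -1.85, adjusted p = 0.000626). In iBAT SVF the libraries of 3 weeks, at 1.75, 1.73 and 2.52 FPKM, were within the range of day 1, and those of 6 weeks, at 0.47, 0.04 and 0.33 FPKM, were below it. Of 29 genes of respiratory chain and citric acid cycle proteins tested in the SVF, 4 were higher and 1 lower at 12 weeks in iBAT SVF, and 8 were higher and none lower in sBAT SVF, where 14.5% and 38.3% of all genes were higher. Here too the all-gene share of sBAT SVF changed with the scaling. Its closest genes over the 24 libraries were SMPX, APOBEC2 and HSPB7, at r = 0.902, 0.899 and 0.896, and its r with CKM was 0.858. SMPX and APOBEC2 are best known from striated muscle. Without the first day 1 library the iBAT SVF call was lost (adjusted p = 0.0525).

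CKB of the SVF was higher at 12 weeks than at 6 weeks in both depots. In iBAT SVF it read 27.2, 25.2 and 23.2 FPKM at day 1, 19.6, 18.3 and 14.7 FPKM at 3 weeks, 14.6, 15.9 and 20 FPKM at 6 weeks, and 29.5, 40.4 and 27.9 FPKM at 12 weeks. In sBAT SVF it read 23.2, 35.6 and 34.7 FPKM at day 1, 7.9, 13.9 and 12.2 FPKM at 3 weeks, 16.4, 21.3 and 19.8 FPKM at 6 weeks, and 45.6, 45.6 and 57.2 FPKM at 12 weeks. From 6 to 12 weeks CKB rose in both depots without overlap, by 0.908 in iBAT SVF (SE 0.21, adjusted p = 0.00832) and by 1.32 in sBAT SVF (SE 0.21, adjusted p = 0.000414). Both calls were kept under each of 14 alternatives. In sBAT SVF CKB was lower at 6 weeks than at day 1 (-0.66, adjusted p = 0.0184), and in iBAT SVF the 6 weeks libraries also lay below those of day 1 but CKB was not called (-0.565, adjusted p = 0.0731). Against day 1, CKB at 12 weeks was called in sBAT SVF (0.664, adjusted p = 0.0147) and not in iBAT SVF (0.343, adjusted p = 0.205). Median ratio scaling turned these calls round, to 0.186 (adjusted p = 0.436) in sBAT SVF and 0.459 (adjusted p = 0.0377) in iBAT SVF. The sBAT SVF call was also lost without the first day 1 library or the third of 12 weeks. POLD4, OGDH and BOLA3 were the genes most like CKB over the 24 libraries, at r = 0.917, 0.907 and 0.9.

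SLC6A8 of the SVF was highest at day 1. In iBAT SVF it read 14.6, 8.65 and 18.5 FPKM at day 1, 4.6, 5.11 and 4.57 FPKM at 3 weeks, 6.01, 6.79 and 5.65 FPKM at 6 weeks, and 6.98, 5.96 and 5.85 FPKM at 12 weeks, all later libraries being lower. It fell by 1.32 from day 1 to 3 weeks (adjusted p = 0.0116), a call lost without the third day 1 library (-1.09, adjusted p = 0.0639), and was lower at 12 weeks by 0.983 (adjusted p = 0.0291), a call that was lost after median ratio scaling (-0.862, adjusted p = 0.0571) and without the first or the third day 1 library or the second or the third of 12 weeks. In sBAT SVF it read 10.9, 6.4 and 23.6 FPKM at day 1, 0.91, 3.07 and 1.12 FPKM at 3 weeks, 5.87, 3.6 and 7.33 FPKM at 6 weeks, and 3.62, 4.98 and 4.99 FPKM at 12 weeks (-1.24, adjusted p = 0.00637), and this call was lost without the third day 1 library (adjusted p = 0.0596). CCNY and PKM were the genes most like SLC6A8 over the 24 libraries, at r = 0.915 and 0.912.

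GATM fell in iBAT SVF between 3 and 6 weeks, a step over which it was not called in whole fat (0.317, adjusted p = 0.661). It read 4.24, 6.51 and 12.7 FPKM at day 1, 6.16, 8.45 and 10.1 FPKM at 3 weeks, 2.08, 2.12 and 1.59 FPKM at 6 weeks, and 4.68, 1.75 and 1.53 FPKM at 12 weeks. The 6 weeks libraries lay below all of day 1 and 3 weeks. The log2 difference of 6 from 3 weeks was -1.64 (SE 0.354, adjusted p = 0.0224), where 1.27% of all genes were called, and that of 12 weeks from day 1 was -1.25 (adjusted p = 0.0091). GATM was also lower at 6 weeks than at day 1 (-1.48, adjusted p = 0.00733), a call lost without the third day 1 library (adjusted p = 0.057). Each of 5 of the 6 libraries of 3 and 6 weeks, left out alone, ended the first call, and leaving out the third library of day 1 or of 12 weeks ended the second. In sBAT SVF, GATM read 4.49, 5.97 and 4.6 FPKM at day 1, 3.22, 5.71 and 1.61 FPKM at 3 weeks, 3.97, 3.7 and 4.05 FPKM at 6 weeks, and 4.89, 3.31 and 1.91 FPKM at 12 weeks and was not called (12 weeks against day 1 -0.512, adjusted p = 0.246). MBP in iBAT SVF read 17.65, 17.95 and 36.85 FPKM at day 1, 12.7, 19.58 and 21.5 FPKM at 3 weeks, and 2.03, 1.58 and 1.2 FPKM at 6 weeks, again below all earlier libraries (6 against 3 weeks -2.84, adjusted p = 0.00186). S100B was lower in that step too (-1.74, adjusted p = 0.0297), whereas SOX10 (-0.467) and GFAP (-0.716) were not called. In sBAT SVF, MBP read 21.61, 15.25 and 5.27 FPKM at 3 weeks and 2.65, 4.72 and 4.07 FPKM at 6 weeks and was called lower (-1.48, adjusted p = 0.00429), while GATM was not called in that step (0.225, adjusted p = 0.555). MBP was among the 3 genes most like GATM over the 24 SVF libraries (r = 0.797), and after median ratio scaling PLEKHB1 and MBP were (r = 0.926 and 0.901). As in whole fat, the part of Schwann cells in the GATM values was not tested.

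The steps between ages gave fewer calls in iBAT SVF than the span from day 1 to 12 weeks. SLC6A8 was the 1 gene of 5 called from day 1 to 3 weeks (18.7% of all genes). GATM was the 1 called from day 1 to 6 weeks (15.4% of all genes) and from 3 to 6 weeks (1.27%). CKB was the 1 called from 6 to 12 weeks (12.4% of all genes). From day 1 to 6 weeks 5 of 5 had an unadjusted p under 0.05 in limma. From 3 to 6 weeks 3 of 5 did, and from day 1 to 3 weeks 2 of 5. SLC6A8 was near the threshold from day 1 to 6 weeks (-1.005, adjusted p = 0.0504). It was called there with the filter at 5 FPKM (adjusted p = 0.0475) and with only the groups compared (adjusted p = 0.0411). CKB in that step was called with the 2 dominant genes left out (-0.62, adjusted p = 0.0319). In sBAT SVF, 3 of 5 were called lower from day 1 to 3 weeks (CKB, CKMT2 and SLC6A8), where 71.2% of all genes were called and 69.8% were lower. After median ratio scaling SLC6A8 alone was called in that step, with CKB at -0.273 (adjusted p = 0.23) and CKMT2 at -0.097 (adjusted p = 0.858). From 3 to 6 weeks 3 of 5 were called (CKB and SLC6A8 higher, CKMT2 lower), where 83.9% of all genes were. After the same scaling SLC6A8 was not called from 3 to 6 weeks (0.267, adjusted p = 0.643) and CKB was lower (-0.697). From day 1 to 6 weeks 4 of 5 were called lower (CKM, CKB, CKMT2 and SLC6A8, 35.8% of all genes called). The CKB call was lost without the second or the third library of day 1 or the first of 6 weeks, and the SLC6A8 call without the third of day 1 or the first or second of 6 weeks. From 6 to 12 weeks CKB was the 1 called (10.8% of all genes). In all, 4 of 5 genes were called between day 1 and 12 weeks in iBAT SVF (CKM, CKMT2, GATM and SLC6A8, all lower), where 37.3% of all genes were called and 22.8% were lower. In sBAT SVF, 4 of 5 were called (CKM, CKMT2 and SLC6A8 lower, CKB higher), where 44.1% of all genes were called, 38.3% higher and 5.86% lower. Median ratio scaling brought that split to 1935 genes higher and 1979 lower, from 5080 and 778, and in iBAT SVF to 2529 and 2646, from 1924 and 3029. Over the 4 ages, 5 of 5 changed in iBAT SVF (36.4% of all genes) and 4 of 5 in sBAT SVF (93.5% of all genes). GATM, not called there, was called after median ratio scaling. The count in iBAT SVF at 12 weeks was 1 without the first day 1 library and 2 without the third day 1 library or the second or the third of 12 weeks. That in sBAT SVF was 2 without the first day 1 library or the third of 12 weeks.

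**Figure D5:**
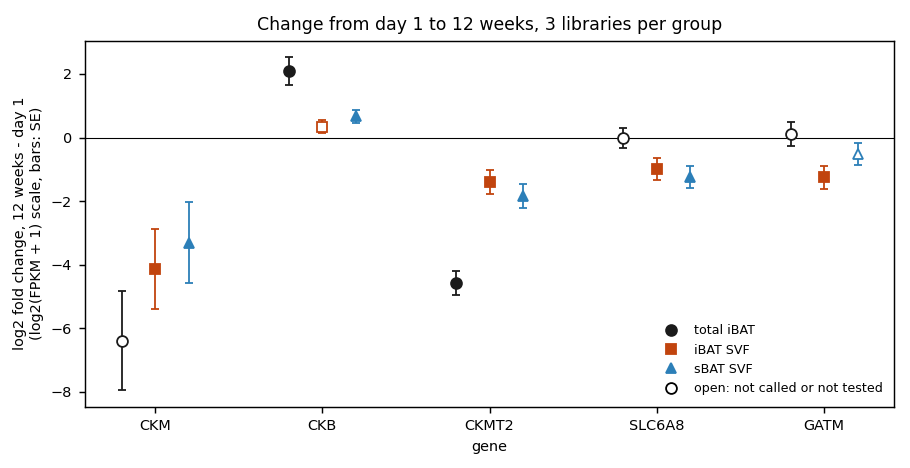
Difference of 12 weeks from day 1 (y axis, log2(FPKM + 1) scale, bars are SE, 3 libraries per group) for each gene in total iBAT, iBAT SVF and sBAT SVF; filled markers were called and open ones were not called or, for CKM in total iBAT, not tested. CKMT2 is below 0 in all 3 tissues, and CKB is above 0, by 2.08 in total iBAT and by less in the SVF.

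The depots were compared at each age. None of the 5 genes was called between sBAT and iBAT SVF by limma at day 1, where 0.414% of all genes were called, or at 6 weeks, where 2.47% were, and 1 gene at each age had an unadjusted p under 0.05 (CKMT2 at day 1, GATM at 6 weeks). At 3 weeks, 3 of 5 were called lower in sBAT SVF (CKB by 0.611, GATM by 1.11 and SLC6A8 by 1.18), where 76% of all genes were called lower. At that age the 2 dominant genes held most of the sBAT SVF libraries. After median ratio scaling CKB was higher in sBAT SVF (0.58, adjusted p = 0.0403), and GATM and SLC6A8 were not called. At 12 weeks CKB was called higher in sBAT SVF (0.596, adjusted p = 0.0464), where 22.2% of all genes were called, and the call was lost with the replicate number as a block (adjusted p = 0.0783), after median ratio scaling (0.22, adjusted p = 0.455) and without any 1 of 5 of the 6 libraries.

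The change with age differed between depots for 2 of 5 genes by the joint interaction test, CKB (adjusted p = 0.00738) and GATM (adjusted p = 0.011), where 75.1% of all genes were called. For the step from day 1 to 3 weeks 1 of 5 was called (CKB, -0.887, adjusted p = 0.0227, 43.2% of all genes called). From day 1 to 6 weeks the interaction was called for none of the 5 genes (0.708% of all genes), 1 of which had an unadjusted p under 0.05. Neither CKB nor GATM was called in the joint test after median ratio scaling, nor without the 3 sBAT SVF libraries of 3 weeks. For 12 weeks against day 1, the interaction was called for none of the 5 genes by limma, and none had an unadjusted p under 0.05, where 18.4% of all genes were called. Its value was 0.321 for CKB (SE 0.297, adjusted p = 0.45) and 0.743 for GATM (SE 0.501, adjusted p = 0.291).

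The neighbours of the creatine genes were counted over a list of 30 symbols, 28 of which were found. It holds other phosphoryl transfer enzymes, the channels and carriers that pass adenine nucleotides across the mitochondrial membranes, and the enzymes that supply or use arginine, glycine and methyl groups. In total iBAT, 23 were tested for 12 weeks against day 1, of which 4 were higher and 10 lower (17.4% and 43.5%, against 31.3% and 15.7% of all genes), with a median of -0.39 against 0.19 over all genes. Those higher were ASS1, which makes the precursor of arginine (3.65 to 64.2 FPKM in group means, 3.79, adjusted p = 2.18e-05), ARG2, OAT and PEMT. Among those lower were AK4, a mitochondrial adenylate kinase (-1.73, adjusted p = 0.000287), the ADP/ATP carrier SLC25A4 (-0.807) and the outer membrane channel VDAC2 (-1.08). The glycine enzymes SHMT1 (-1.92), SHMT2 and AMT, and MAT2A and MAT2B, which make the methyl donor S-adenosylmethionine, were lower as well, as were AMPD3 and the taurine transporter SLC6A6. These 14 calls were kept under median ratio scaling, under which VDAC1 was called lower too. Leaving out 1 library ended the calls of SLC6A6, SHMT2, MAT2B and SLC25A4.

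In the SVF the shares of neighbours called in iBAT SVF were near those of all genes. Of 24 tested, 4 were higher and 6 lower at 12 weeks in iBAT SVF (16.7% and 25%, against 14.5% and 22.8% of all genes; median -0.3, all genes -0.1). In sBAT SVF 5 were higher and 4 lower (20.8% and 16.7%, against 38.3% and 5.86% of all genes; median -0.04, all genes 0.41). The all-gene split of sBAT SVF changed with median ratio scaling, as given above, and no count of the neighbours after it is given. The distance of the neighbours from all genes in sBAT SVF may therefore depend on the scaling. AK4, SLC6A6 and SHMT2 were lower and AK3 and ASL, the enzyme that releases arginine, were higher in both depots, the call of SLC6A6 in sBAT SVF being lost without any 1 of 5 of the 6 libraries. PEMT was higher in iBAT SVF (5.17 to 38.9 FPKM in group means, 2.31, adjusted p = 0.00108), and MAT2A was lower there (-1.74, adjusted p = 3.97e-05). ALPL, a phosphatase that has been placed in the creatine cycle of thermogenic fat, was higher in sBAT SVF at 12 weeks, from a mean of 0.15 to 1.85 FPKM (1.27, adjusted p = 0.000426). In iBAT SVF its means were 0.547 and 0.387 FPKM and it was not called (adjusted p = 0.607). The interaction of depot and age was called for ALPL at 12 weeks (1.44, SE 0.351, adjusted p = 0.0124), a test that was not repeated under other settings. Of these group means only that of sBAT SVF at 12 weeks was above 1 FPKM, the level of the filter. The ALPL calls thus set the group that is high against groups near the floor and are weak evidence of a difference. In total iBAT ALPL stayed below 1 FPKM on average at both ages. CKMT1B, the other mitochondrial creatine kinase, had a mean of at most 0.573 FPKM at day 1 and 12 weeks in each tissue and was not tested.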

How the data were processed

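Gene expression was read from 2 deposited tables, 1 of 12 total iBAT libraries and 1 of 24 SVF libraries. Headers and labels gave each of the 36 value columns its sample. The series' 3 single-cell samples were not analysed here. The deposited values are FPKM as computed by the authors, per the file headers. The submitters' processing notes name HISAT2 2.0.4, Bowtie2 2.2.5, DESeq2 and the build OryCun2.0 without saying which step each served. The RefSeq table at hand is of another assembly, so it was used for names alone (17693 SVF and 17389 total iBAT identifiers matched) and no coordinates are given. No read counts were used, and absolute depth is unknown.

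Values were transformed to log2(FPKM + 1), which understates fold changes of low genes. A gene entered the tests of a table where 3 or more libraries reached 1 FPKM, which left 12853 genes for total iBAT and 13274 for SVF, the 5 creatine genes among them. Each table had its own fit of group means in limma 3.58.1 in R 4.3.3 (moderated, with a variance trend, two-sided), with BH adjustment over all genes of a comparison and calls at an adjusted p under 0.05. The 26 comparisons were 5 steps between ages and a joint test of age in each tissue, the depots at 4 ages, and the depot by age interaction. The scripts were tested on simulated data. The relative depth of the libraries was estimated from ratios of low values. For total iBAT, the estimate of 86.4% of library pairs lay no more than 0.1 (log2) from the joint one. For the SVF this held for 58.7%, and no relative depth is given. Named genes were all 5 genes, the called genes of the neighbour list for 12 weeks against day 1, the sarcomere genes with the highest mean, UCP1, CIDEA, PPARGC1A, COX7A1 and ADIPOQ, and for each gene and table the 3 others of highest r among genes with a group mean of at least 10 FPKM. MB, VDAC1, CKMT1B, the progenitor, endothelial, smooth muscle and macrophage genes and the markers named beside a result were chosen after their values were seen. A few genes that these rules would name are not reported here. The genes and lists were chosen with earlier results of these data known. Alternatives were a pseudocount of 0.1, no filter or a filter at 5 FPKM, median ratio or upper quartile scaling, leaving out the 2 dominant genes, no variance trend, only the groups compared, a replicate block, and leaving out each library in turn. Leaving out the 3 sBAT SVF libraries of 3 weeks was added after seeing the data. Deviations of libraries with the same number in iBAT and sBAT SVF were correlated at 0.06 to 0.58 at day 1. At 3 and 6 weeks the correlations were -0.28 to 0.19, and at 12 weeks 0.25 to 0.5. The labels do not say that equal numbers mark the same animal, so the main fits used no pairs. The replicate block in the SVF, an alternative, took equal numbers as pairs at every age.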

Additional observations from a re-analysis of the deposited data

Results flagged for a closer look

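CKB was flagged because its change from day 1 to 3 weeks differed between the depots by the test of that difference in limma. The change in sBAT SVF (from 23.2, 35.6 and 34.7 FPKM to 7.9, 13.9 and 12.2 FPKM) was lower than that in iBAT SVF (from 27.2, 25.2 and 23.2 FPKM to 19.6, 18.3 and 14.7 FPKM) by 0.887, printed as -0.89 on the log2(FPKM + 1) scale (SE 0.297, adjusted p = 0.0227, in 3 against 3 libraries at each age), where 43.2% of all genes were called. In the sBAT SVF libraries of 3 weeks ADORA1 and LOC100009266 held 63.9 to 80.4% of the summed FPKM. With these 2 genes left out the value was 0.199 (adjusted p = 0.838), and after median ratio scaling it was 0.087 (adjusted p = 0.928).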

How the results depend on the processing

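The 5 genes gave 124 gene and comparison pairs and 2052 values under alternatives, of which 1891 kept their direction and call, 120 lost the call, 30 gained it and 11 reversed. All 11 reversals involved the sBAT SVF libraries of 3 weeks and a change of scaling. For CKB between 6 and 3 weeks in sBAT SVF the value turned from 0.733 to -0.697 (median ratio), -0.676 (upper quartile) and -0.836 (2 dominant genes left out). For CKB between depots at 3 weeks it turned from -0.611 to 0.58, 0.546 and 0.917, and for the CKB interaction at 3 weeks from -0.887 to 0.087, 0.059 and 0.199, in the same order. Leaving out the 2 dominant genes also turned CKMT2 (1.147) and GATM (0.226) between depots at 3 weeks. The number of genes called between depots at 12 weeks, 1, became 0 with a pseudocount of 0.1, with no filter and under median ratio or upper quartile scaling. At 3 weeks, 3 became 1 under median ratio and 0 under upper quartile scaling. The number called for the interaction, 2, became 0 under median ratio and upper quartile scaling, with the 2 dominant genes left out and without the sBAT SVF libraries of 3 weeks. The cause of these moves was not tested. With the replicate block the count between depots at 12 weeks was 0, and SLC6A8 was gained for the interaction at 3 weeks (-1.03, adjusted p = 0.0335) and for the joint interaction (adjusted p = 0.0483). It changed no other call of the 5 genes. The block, set within age, gave no value for ages compared within an SVF depot. With a filter at 5 FPKM CKMT2 was not tested in the SVF. With only the groups compared it dropped below the filter in 8 comparisons, among them iBAT SVF at 12 weeks against day 1. Leaving out 1 library gave 2 to 2 genes called for 12 weeks against day 1 in total iBAT, 1 to 3 in iBAT SVF and 2 to 4 in sBAT SVF. For any age it gave 3 to 4, 3 to 5 and 4 to 4 in the same order, for the depots 0 to 0 at day 1, 2 to 3 at 3 weeks, 0 to 0 at 6 weeks and 0 to 1 at 12 weeks, and for the interaction 2 to 3. FPKM without counts give no limit of detection, so values of 0 are as listed.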
